A study of Mus musculus with 12 samples.

Results

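Calcr, Cd34, Cxcr4, Met and Megf10 encode surface receptors tied to the quiescence or the activation of satellite cells, the muscle stem cells. They were taken as a named set, with earlier results of these data known, and are 5 of the 22310 genes listed in each count file. All 5 passed the filter on low counts. Their transcripts were followed in 12 RNA-seq libraries of satellite cells taken from mouse hindlimb muscle 3 days after injury by BaCl2, in 4 groups of 3 libraries. The groups were young wild type, old wild type, young Hoxa9 knockout and old Hoxa9 knockout. Young mice were 3 to 4 months old and old mice 22 to 28 months, all groups were of strain C57BL/6, and every library came from injured muscle, so none shows resting cells. Hoxa9 is a homeobox transcription factor, and the series asks how its loss bears on ageing of these cells. The labels do not describe the deleted part of the gene, the cells in which it is deleted, or how many animals went into a library. The p-values therefore measure only the spread between these samples.

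Of the 5 receptors, Megf10 alone passed the threshold in edgeR, and it rose in Hoxa9 knockout at both ages, by 1.44 times in old mice and 1.49 times in young mice. This call was lost at both ages when GC content was corrected for or when libraries were scaled by size alone, and in old mice when any 1 of the 6 old libraries was left out. Met stood at similar ratios in knockout but missed the threshold. Calcr stood at 0.389 times its young level in old wild type, with no overlap between the libraries, and did not pass the threshold in the fit over all 4 groups. Cd34 and Calcr varied most between libraries of 1 group, above all among the knockout libraries. No receptor passed the threshold for ageing within knockout or for the interaction of age and genotype.

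These receptors mark different moments in the life of a satellite cell. The calcitonin receptor, Calcr, holds resting satellite cells in quiescence through cyclic AMP and protein kinase A, and its surface level is lost as cells activate. CD34 is a sialomucin of resting satellite cells and of several blood and vascular progenitors. MEGF10 is a scavenger-type receptor with EGF-like repeats that satellite cells carry, where it is linked to proliferation and to Notch signalling, and its loss in humans causes a congenital myopathy. MET is the tyrosine kinase receptor for hepatocyte growth factor (HGF), which is released from injured muscle and drives activation and migration. CXCR4 is the receptor for the chemokine CXCL12 and is used as a surface marker to sort satellite cells.

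The sequences upstream of Calcr, Cd34 and Met are shown because Calcr and Cd34 had the widest spread between libraries and because the ratios of Met ran beside those of Megf10. Each is the 300 bases from 250 before to 50 after an annotated start, 5′ to 3′ on the gene's strand, from RefSeq on build GRCm38.p6. Capitals mark E-boxes, written CANNTG, the core that MyoD and other basic helix-loop-helix factors bind. RefSeq gives Calcr 2 starts on chromosome 6, on the minus strand, at chr6:3763574-3763873 and chr6:3764664-3764963. Cd34 lies on the plus strand at chr1:194938571-194938870 and Met on the plus strand at chr6:17463707-17464006.
Calcr, GC-rich start: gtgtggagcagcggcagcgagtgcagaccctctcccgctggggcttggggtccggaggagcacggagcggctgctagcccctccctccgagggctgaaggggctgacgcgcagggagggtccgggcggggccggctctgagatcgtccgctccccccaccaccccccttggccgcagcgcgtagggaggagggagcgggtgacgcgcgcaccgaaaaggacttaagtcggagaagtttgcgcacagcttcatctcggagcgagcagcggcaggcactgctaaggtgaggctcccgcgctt
Calcr, other start: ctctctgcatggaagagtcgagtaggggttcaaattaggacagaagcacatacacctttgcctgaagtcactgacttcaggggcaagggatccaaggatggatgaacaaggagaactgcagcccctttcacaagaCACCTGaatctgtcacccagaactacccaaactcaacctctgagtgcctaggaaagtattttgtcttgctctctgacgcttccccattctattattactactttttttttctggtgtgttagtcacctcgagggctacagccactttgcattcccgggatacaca
Cd34: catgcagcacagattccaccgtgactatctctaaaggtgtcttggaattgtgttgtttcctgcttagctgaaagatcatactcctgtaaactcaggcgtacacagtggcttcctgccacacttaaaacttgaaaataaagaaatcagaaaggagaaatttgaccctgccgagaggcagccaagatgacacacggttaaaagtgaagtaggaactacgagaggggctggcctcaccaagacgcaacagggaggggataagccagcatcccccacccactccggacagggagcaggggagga
Met: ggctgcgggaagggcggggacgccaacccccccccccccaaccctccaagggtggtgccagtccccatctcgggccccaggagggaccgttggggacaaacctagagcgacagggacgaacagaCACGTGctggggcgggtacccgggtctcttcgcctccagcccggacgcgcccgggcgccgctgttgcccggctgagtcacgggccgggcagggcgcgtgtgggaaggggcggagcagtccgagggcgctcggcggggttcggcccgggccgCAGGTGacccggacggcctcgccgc
The windows differed in base composition. The first Calcr window held 70% G or C and 29 CG pairs, and the Met window 75.7% and 34 CG pairs. The other Calcr window held 47.3% and 4 CG pairs, and the Cd34 window 50% and 7 CG pairs. Over the 32851 promoter windows of the same table, the median was 52.7% G or C and 7 CG pairs. Cxcr4, at chr1:128592250-128592549 on the minus strand and not printed, held 59.3% and 20 CG pairs.

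An E-box on either strand was found 2 times in the Met window and 1 time in the second Calcr window, and 72.3% of all windows hold at least 1. TGACG, the core of the cyclic AMP response element, occurred 2 times in the first Calcr window and 1 time in the second, against 20.8% of all windows with at least 1. TGGGAA, the core read by the Notch effector RBPJ, occurred 1 time in the Met window, against 25.6% of all windows. TGATTTAT, a joint HOX and PBX motif, was in none of the 5 windows examined, and 0.977% of all windows hold it. Such matches describe the letters of these windows and show no binding.

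Each library held between 4193433 and 20337015 reads in genes, and each receptor was covered by at least 105 reads in every library. Hoxa9 fell in old knockout (17.6 ± 4.27 against 5.80 ± 1.08 CPM, log2 difference -1.63 ± 0.25, adjusted p = 0.00235 in edgeR) and missed the threshold in young mice (10.3 ± 2.01 against 6.40 ± 0.848 CPM, -0.67 ± 0.24, adjusted p = 0.0671). Its reads came from a gene whose deleted part is not described, so the check on the labels is limited. Here and below, levels are in CPM (the count divided by the library's scaled total and set to a common total, after trimmed-mean scaling). The 2 genotypes also differed in other measures. Across genes, which are not independent, the rank correlation of relative level and GC content lay between 0.224 and 0.488 in the wild-type libraries and between -0.534 and -0.134 in the knockout ones (Spearman). All 5 receptor transcripts lie below the median GC content of 50.4% of the genes tested, at 45.5% for Met, 46.1% for Calcr and Cxcr4, 48.0% for Megf10 and 48.9% for Cd34. The 10 choroid plexus markers summed to 116 to 6084 CPM in wild type and to 13.7 to 31.1 CPM in knockout, where Ttr and Otx2 were at 0 in every library. The 10 tendon markers summed to 225 to 466 CPM in wild type and to 451 to 1613 CPM in knockout. In wild type the largest part was Chodl, at 309 ± 63.2 CPM when young and 186 ± 3.54 CPM when old. Knockout raised 7 of the 10 in old mice and lowered none. In young mice it raised 1 and lowered 1, Scx (-0.85 ± 0.26, adjusted p = 0.0333 in edgeR). Old knockout replicates 2 and 3 held 125 and 151 CPM of the Y-linked gene Ddx3y. Replicate 1 held 5.11 CPM, and the other groups at most 2.93 CPM. Replicates 2 and 3 are called male below on this gene alone. Old wild type replicate 2 and old knockout replicate 3 held the largest shares of reads outside genes, 57.1% and 70.8%. The part of each of these in the differences between genotypes was not tested except by the fits with GC offsets and without those libraries.

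Compared per kilobase of transcript, the receptors fell into a high and a low set. Cxcr4 averaged 124 CPM per kb over the 12 libraries, above 97.1% of the genes tested. Met averaged 66.3 CPM per kb and Megf10 62.9 CPM per kb, above 93.2% and 92.7% of genes. Cd34 at 13.4 CPM per kb and Calcr at 8.81 CPM per kb sat near the middle of all genes, above 63.2% and 52.5%. The low pair also spread most. The highest library held 13.7 times the lowest for Cd34 and 7.13 times for Calcr, against 2.16 for Cxcr4, 2.15 for Met and 1.96 for Megf10. In the labelled tissue the 10 satellite cell markers, among them Pax7, Myod1 and Cdh15, were present in every group and summed to 5902 to 9386 CPM.

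**Figure D1:**
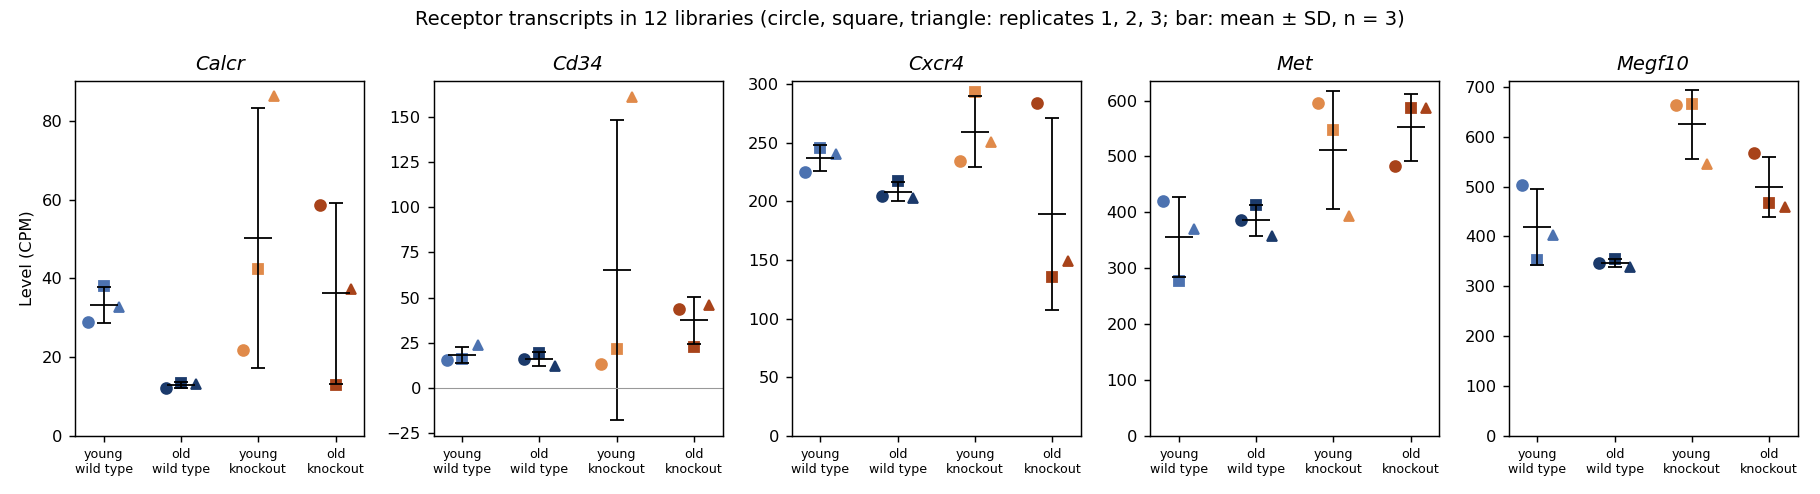
Level of each receptor in CPM (linear axis) in the 12 libraries, by group. Circles, squares and triangles are replicates 1, 2 and 3, and bars are the mean ± SD of 3 libraries. The 3 old wild-type libraries of Calcr sit between 12.1 and 13.4 CPM, and young knockout replicate 3 of Cd34 stands at 161 CPM.

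Calcr was lower in old than in young wild type with no overlap between libraries, as were 13.8% of all genes tested. It stood at 29.0, 38.1 and 32.7 CPM in young wild type and at 12.1, 13.4 and 13.1 CPM in old wild type. In young knockout it stood at 21.7, 42.4 and 86.5 CPM, and in old knockout at 58.7, 12.8 and 37.2 CPM. All 3 old wild-type libraries lay below all 3 young ones, while the knockout libraries of both ages overlapped young wild type and scattered widely. In wild type the mean was 33.3 ± 4.58 CPM (SD, n = 3) when young and 12.9 ± 0.683 CPM when old. The log2 fold change was -1.36 ± 0.55 (SE), with a 95% interval of -2.59 to -0.13. With the spread shared over all 4 groups, edgeR gave an unadjusted p of 0.033 and a Benjamini-Hochberg adjusted p of 0.290, which missed the threshold of 0.05. A fit of the wild-type libraries alone gave -1.36 with an adjusted p of 0.000324, and limma-voom with sample quality weights gave -1.36 with an adjusted p of 0.0400. The SD of Calcr was 33.1 CPM in young and 23.0 CPM in old knockout.

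Old knockout held a mean of 36.2 ± 23.0 CPM of Calcr against 12.9 ± 0.683 CPM in old wild type, a log2 difference of 1.47 ± 0.56 that missed the threshold in edgeR (adjusted p = 0.0983). Replicate 2 of old knockout, at 12.8 CPM, lay within the old wild-type range and the other 2 replicates lay above it. Without replicate 2 the difference was 1.91 and passed, with an adjusted p of 0.0258 in edgeR. In young mice the difference of 0.57 ± 0.54 had an adjusted p of 0.483 in edgeR. It was -0.02 without young knockout replicate 3.

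Pax7, the transcription factor that defines satellite cells, also fell with age in wild type, by 0.72 ± 0.14 on the log2 scale (means of 366 ± 31.9 and 221 ± 20.3 CPM, adjusted p = 0.0271 in edgeR). Set against it, Calcr stood at 7.31, 10.4 and 9.82 reads per 100 Pax7 reads in young wild type and at 5.49, 5.55 and 6.53 in old wild type. The libraries of the 2 ages still did not overlap on this ratio, though their means, 9.18 ± 1.64 and 5.86 ± 0.584, lay closer together than the levels did. In these bulk libraries, fewer cells of a type and less RNA per cell cannot be told apart. The 13 macrophage and monocyte markers summed to 29.2 to 50.9 CPM in young and 164 to 188 CPM in old wild type, none of them at 0 in all libraries of a group, and the part of such cells in the Calcr difference was not tested.

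The calcitonin receptor list held 19 genes of its ligands, accessory proteins and the cyclic AMP relay, of which 15 were tested. Ageing in wild type lowered 1, Ramp2, a receptor activity-modifying protein, from 65.5 ± 5.42 to 37.2 ± 4.79 CPM (-0.82 ± 0.15, adjusted p = 0.0253 in edgeR). With GC offsets Ramp2 stood at -0.71 and missed the threshold (adjusted p = 0.0634 in edgeR). The list's median log2 fold change was -0.21 against 0.01 over all genes. The listed transcripts Calca and Calcb were scarce, at or below 2.40 and 0.298 CPM in all 12 libraries. These levels do not measure ligand that reaches the cells from elsewhere. Transcripts of collagen V, a ligand of the calcitonin receptor in mouse satellite cells, were abundant, and those of its chains did not move together. Its main chains did not pass between genotypes, Col5a1 at 0.22 ± 0.19 in old mice (adjusted p = 0.441 in edgeR) and -0.45 ± 0.19 in young mice (adjusted p = 0.101), and Col5a2 at 0.37 ± 0.20 (adjusted p = 0.220) and -0.28 ± 0.20 (adjusted p = 0.341). Col5a1 averaged 1940 ± 215 CPM in young wild type. The Col5a3 chain stood at 1045, 934 and 999 CPM in young wild type and 946, 889 and 977 CPM in old wild type, against 577, 427 and 461 CPM in young and 402, 587 and 541 CPM in old knockout. Every knockout library lay below every wild-type library.

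In old mice knockout lowered 2 of the 15 genes and raised none, and in young mice it lowered 4 and raised none. The 2 genes in old mice were Col5a3 (-0.88 ± 0.16, adjusted p = 0.00494 in edgeR) and Gnas, which encodes the stimulatory G protein subunit (-0.82 ± 0.16, adjusted p = 0.00708). Young mice showed the same 2 genes at -1.02 and -0.92, with the kinase subunit Prkaca at -0.50 and Ramp2 at -0.63. With GC offsets Gnas kept its call at both ages (-0.53 and -0.53), while Col5a3 narrowly missed it (-0.55 with an adjusted p of 0.0611 and -0.59 with 0.0538 in edgeR). Prkaca and Ramp2 were then at -0.21 and -0.19 and did not pass. The kinase gene Lats2 was then called higher at both ages, at 0.48 in old mice (adjusted p = 0.0462 in edgeR) and 0.55 in young mice (adjusted p = 0.0345). Lats2 and the other genes named below as called with GC offsets alone were chosen after their values were seen.

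Cd34 was low in most libraries and high in 1. It stood at 15.2, 16.2 and 23.5 CPM in young wild type and at 15.9, 19.5 and 11.8 CPM in old wild type. Old knockout libraries held 43.9, 22.4 and 45.9 CPM, and young knockout libraries 13.3, 21.7 and 161 CPM. The wild-type ages overlapped, and all 3 old knockout libraries lay above all 3 old wild-type ones. In young knockout, replicate 3 alone stood above the wild-type range. The means of old mice were 37.4 ± 13.0 CPM in knockout and 15.7 ± 3.85 CPM in wild type, a log2 difference of 1.23 ± 0.81 with an adjusted p of 0.319 in edgeR. The difference passed when only the old groups were fitted (1.22, adjusted p = 0.0233 in edgeR) and when young knockout replicate 3 was left out (1.25, adjusted p = 0.0101). In young mice the difference of 1.79 ± 0.81 had an adjusted p of 0.144 in edgeR and rested on replicate 3, since without it the value was -0.04. Cd34 did not differ detectably with age in wild type (-0.23 ± 0.80, 95% interval -2.01 to 1.56, adjusted p = 0.938 in edgeR).

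Young knockout replicate 3 stood apart in other transcripts as well and had the fewest reads of the 12 libraries, 4193433. Myod1, the activation factor of the myogenic lineage, stood there at 549 CPM against 74.1 to 219 CPM in the other 11 libraries, and Calcr reached its highest level of 86.5 CPM. The growth regulator Myc stood at 639 CPM, the early response gene Btg2 at 450.4 CPM and the BMP antagonist Chrdl2 at 40.0 CPM, each the highest of the 12. Of 17 quiescence genes 8 had their highest level in this library, while of 16 activation and cycling genes 6 had their lowest level there and 2 their highest. The sum of those 16 was still the highest of the 12 libraries, at 2425 CPM against 1473 to 2207 CPM, with Myc and Myod1 its largest parts. Plk1, a mitotic kinase, was lowest there at 3.48 CPM.

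Cd34 is also carried by endothelial cells and fibro-adipogenic progenitors. The 12 endothelial markers summed to 45.9 to 72.8 CPM in young wild type, 38.4 to 55.4 CPM in old wild type, 33.6 to 55.2 CPM in young knockout and 29.9 to 49.1 CPM in old knockout, and none was at 0 in all libraries of a group. Young knockout replicate 3 held 55.2 CPM of them, inside the wild-type range and above the other young knockout libraries, at 34.1 and 33.6 CPM. Its Pecam1 stood at 0.994 CPM, while its Cdh5, at 12.2 CPM, was the highest of the 12 libraries, the others lying at 1.91 to 5.23 CPM. The 12 fibro-adipogenic markers, matrix genes included, summed to 5944 to 6735, 3215 to 3696, 4509 to 5695 and 4793 to 5803 CPM in the same order of groups, with none at 0. Of their surface markers, Pdgfra lay between 2.18 and 9.88 CPM and Ly6a between 1.28 and 3.81 CPM, while Cd248 averaged 25.7 ± 9.77 CPM in young wild type. Of the 11 markers tested, knockout in old mice raised 2 and lowered none. Dcn rose from 19.8 ± 2.01 to 305 ± 213 CPM (3.93 ± 0.77, adjusted p = 0.0108 in edgeR) and Lum by 3.26 ± 0.91 (adjusted p = 0.0357). In young mice Dcn was called higher (2.31 ± 0.72, adjusted p = 0.0482 in edgeR), and Cd248 (-1.73 ± 0.41) and Col1a1 (-1.12 ± 0.31) lower. The 8 Schwann cell and neural markers summed to 762 CPM in young knockout replicate 3 and to 179 to 488 CPM in the other libraries. The part of these cells in the Cd34 level was not tested.

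**Figure D2:**
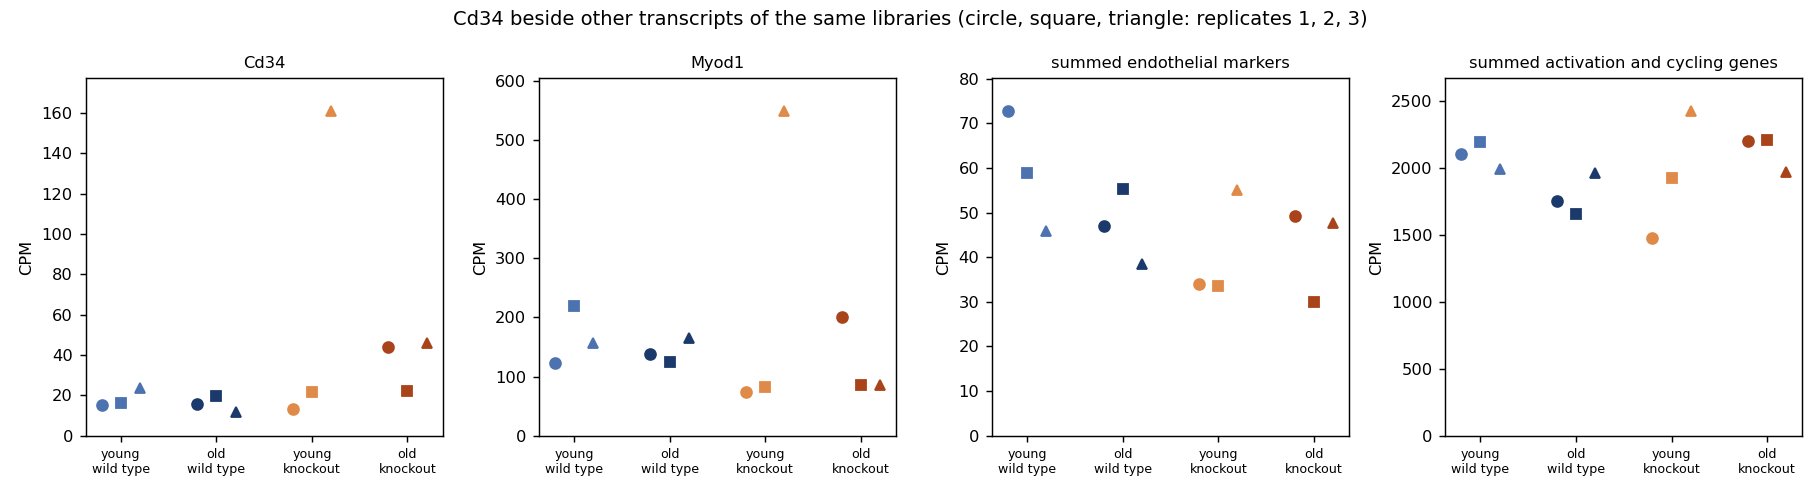
Cd34, Myod1, the sum of 12 endothelial markers and the sum of 16 activation and cycling genes, in CPM (linear axes from 0) in the 12 libraries. Circles, squares and triangles are replicates 1, 2 and 3. Young knockout replicate 3 stands at 161 CPM for Cd34 and 549 CPM for Myod1, while its endothelial sum of 55.2 CPM lies inside the wild-type range and above the other young knockout libraries. Its activation and cycling sum of 2425 CPM is the highest of the 12.

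Of 8 partners and relatives on the CD34 list, 7 were tested. None passed for ageing in wild type in edgeR, though 2 had an unadjusted p under 0.05, while DESeq2 called 0 and limma-voom with sample quality weights 2. Knockout in old mice lowered 1, Podxl, which encodes the related sialomucin podocalyxin (15.7 ± 4.03 against 8.71 ± 3.10 CPM, -0.90 ± 0.26, adjusted p = 0.0343 in edgeR). Podxl fell to -0.78 with an adjusted p of 0.0855 in edgeR with GC offsets and so lost its call. In young mice none passed in edgeR and 2 had an unadjusted p under 0.05, and DESeq2 called 1 and limma-voom 0. With GC offsets 1 was called higher in young mice, the sialomucin gene Podxl2 (0.78, adjusted p = 0.0277 in edgeR). The adaptors Crk and Crkl, the most abundant of the list, stood there at log2 differences of 0.38 ± 0.15 and 0.05 ± 0.11.

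Megf10 was higher in knockout at both ages. In old mice it stood at 348, 355 and 339 CPM in wild type and at 568, 468 and 460 CPM in knockout. In young mice it stood at 503, 352 and 403 CPM in wild type and at 664, 666 and 546 CPM in knockout. At each age the lowest knockout library lay above the highest wild-type library, and the old wild-type libraries lay closest together. In old mice the means were 347 ± 7.99 CPM in wild type and 499 ± 60.2 CPM in knockout, a log2 fold change of 0.52 ± 0.15 with a 95% interval of 0.19 to 0.85 and an adjusted p of 0.0341 in edgeR. In young mice the means were 420 ± 76.8 and 625 ± 68.9 CPM, a log2 fold change of 0.58 ± 0.15 with an interval of 0.25 to 0.90 and an adjusted p of 0.0177 in edgeR.

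Megf10 was the 1 receptor of 5 called at each age, where 16.7% of all genes tested were called in old mice and 20.9% in young mice, 9.52% and 10.9% of them higher in knockout. Libraries did not overlap, with knockout higher, for 3 of the 5 receptors in old mice (Cd34, Met and Megf10) and for 1 in young mice, against 21.6% and 16.0% of all genes. The call for Megf10 was lost with GC offsets, at 0.46 with an adjusted p of 0.0697 in old and 0.49 with 0.0644 in young mice. With scaling by library size alone, which moved the median of all genes, it was lost at 0.27 in old mice and 0.49 in young mice. Without both male libraries, which leaves 1 old knockout library, Megf10 stood at 0.72 in old mice. Without both libraries with most reads outside genes none of the 5 was called in old mice (Megf10 at 0.60, adjusted p = 0.154 in edgeR). That fit called only 3 of all genes there, against 2265 with all 12 libraries. Leaving out any 1 of the 6 old libraries also ended the call in old mice, with values of 0.44 to 0.59 and adjusted p of up to 0.102 in edgeR. In young mice the call ended without wild type replicate 2 (0.46, adjusted p = 0.0794 in edgeR), without wild type replicate 3 (0.55) or without knockout replicate 2 (0.58), and in a fit of the young groups alone (0.63, adjusted p = 0.0662).

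Relative to Pax7, Megf10 stood at 127, 96.0 and 121 reads per 100 Pax7 reads in young wild type and 158, 147 and 169 in old wild type. The knockout libraries held 279, 311 and 225 in young and 246, 277 and 226 in old mice. Every knockout library lay above every wild-type library on this ratio, and the 2 wild-type ages, whose Megf10 levels overlapped, did not overlap. The ratio also moves with its denominator. Mean Pax7 (CPM) was 366 for wild type and 232 for knockout at the young age, then 221 and 201 at the old age. In old wild type mean Megf10 was lower than in young (347 against 420 CPM), so the higher ratio there came from lower Pax7. The share of all genes that separate on this ratio was not tested. Megf10 in wild type did not pass the test for age (-0.27 ± 0.15, adjusted p = 0.457 in edgeR).

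All 13 genes on the MEGF10 list, which holds its paralogs, its ligand C1q and Notch partners, were tested. In old mice 2 rose in knockout and none fell. They were Megf10 itself and Gulp1, the adaptor of engulfment receptors, from 8.37, 10.3 and 8.51 CPM in wild type to 18.9, 13.5 and 25.3 CPM in knockout (1.06 ± 0.32, adjusted p = 0.0400 in edgeR). Gulp1 lost its call with GC offsets, at 0.32. In young mice Megf10 rose and 1 gene fell, the receptor Notch3 (1968 ± 308 against 1339 ± 162 CPM, -0.56 ± 0.17, adjusted p = 0.0353 in edgeR), which was at -0.15 with GC offsets. The list's median log2 difference was -0.17 in old and 0.58 in young mice, against -0.01 and -0.02 over all genes. The value in young mice is that of Megf10 itself, the middle gene of the list, so it does not measure its partners. For ageing in wild type none passed in edgeR, 3 had an unadjusted p under 0.05, DESeq2 called 1 and limma-voom with sample quality weights 5. The complement subunit C1qa, also a macrophage product, was scarce, at 9.34 to 18.1 CPM in old wild type and 1.52 to 3.55 CPM in young wild type.

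Met followed the same order of genotypes with a wider spread. It stood at 420, 278 and 370 CPM in young wild type and at 386, 413 and 358 CPM in old wild type. Young knockout libraries held 596, 547 and 393 CPM and old knockout libraries 483, 586 and 587 CPM. All 3 old knockout libraries lay above the old wild-type range, while in young mice replicate 3 of knockout lay within the young wild-type range. The log2 difference was 0.52 ± 0.18 in old mice (385 ± 27.3 against 552 ± 59.6 CPM, adjusted p = 0.0645 in edgeR) and 0.52 ± 0.18 in young mice (356 ± 72.3 against 512 ± 106 CPM, adjusted p = 0.0548). DESeq2 placed both past the threshold, at 0.51 with an adjusted p of 0.0485 in old and 0.56 with 0.0218 in young mice. GC offsets brought them to 0.32 and 0.29, with adjusted p of 0.235 and 0.317 in edgeR. Without young knockout replicate 3 the difference in young mice was 0.72 and passed (adjusted p = 0.00812 in edgeR). Met did not differ detectably with age in wild type (0.11 ± 0.18, adjusted p = 0.847 in edgeR).

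**Figure D3:**
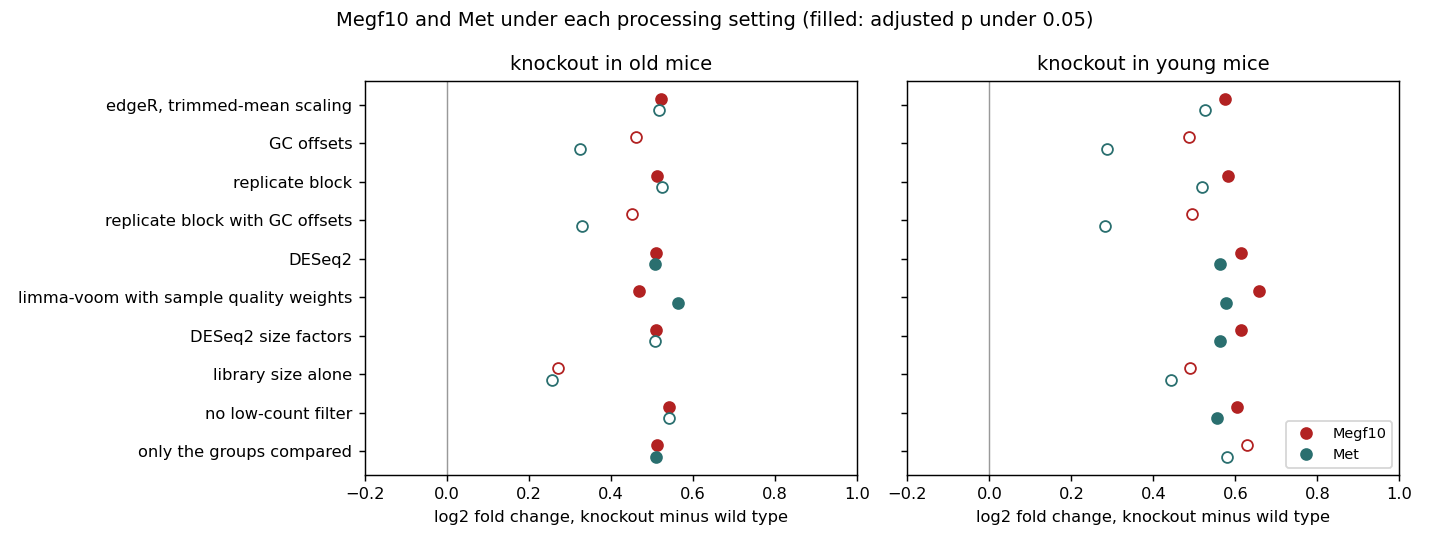
Log2 fold change of knockout minus wild type for Megf10 and Met in old and young mice under 10 processing settings. Filled points have an adjusted p under 0.05 and open points do not. Every value lies above 0, and with GC offsets neither gene is filled at either age, with Megf10 at 0.46 and 0.49 and Met at 0.32 and 0.29.

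Transcripts of the ligand HGF were present at low levels. In wild type, Hgf reached 3.48 ± 0.722 CPM at the young age and 4.74 ± 1.01 CPM at the old age, and in knockout 5.87 ± 1.52 and 8.14 ± 3.36 CPM. Its differences between genotypes, 0.79 ± 0.34 in old and 0.79 ± 0.35 in young mice, missed the threshold in edgeR (adjusted p = 0.121 and 0.122). All 20 genes of the HGF and MET list were tested, covering activating proteases, their inhibitors, docking proteins and co-receptors. None passed for ageing in wild type in edgeR, 2 had an unadjusted p under 0.05, and DESeq2 and limma-voom with sample quality weights each called 0.

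Knockout lowered 1 of the 20 in old mice and 2 in young mice and raised none, shares below the 16.7% and 20.9% of all genes called. Spint2, an inhibitor of HGF activation, stood at 7.37, 13.4 and 5.93 CPM in young and 10.2, 13.9 and 0.817 CPM in old wild type. It stood between 0.385 and 2.73 CPM in the 6 knockout libraries. The log2 difference was -3.48 ± 1.01 in old mice (adjusted p = 0.0407 in edgeR) and -3.12 ± 0.98 in young mice (adjusted p = 0.0456). Old wild type replicate 3, lowest in Spint2 among the wild-type libraries, was also lowest in the choroid plexus sum, at 116 CPM against 1600 to 6084 CPM in the others, and the part of such cells in Spint2 was not tested. Plxnb1, a plexin that pairs with MET, fell in young mice (-0.52 ± 0.17, adjusted p = 0.0469 in edgeR) and was at -0.14 with GC offsets, where Spint2 also lost its call and Cd44 was called lower (-0.69, adjusted p = 0.0392). The abundant list members Cd44, a MET co-receptor, and Stat3 stood at 1418 ± 151 and 817 ± 61.6 CPM in young wild type.

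Cxcr4 was the most abundant of the 5 per kilobase. It stood at 225, 246 and 240 CPM in young wild type and at 205, 217 and 203 CPM in old wild type. Young knockout libraries held 235, 293 and 250 CPM, and old knockout libraries 284, 136 and 149 CPM. The old wild-type libraries all lay below the young ones by a narrow margin, and old knockout held both the lowest libraries of the 12 and 1 of the highest. Cxcr4 and Calcr were the 2 receptors lower in old wild type with no overlap, as were 13.8% of all genes tested, and 1.06% of genes were called for ageing in wild type in either direction. The age difference in wild type, -0.19 ± 0.22, had a 95% interval of -0.66 to 0.29 and an adjusted p of 0.770 in edgeR. Between genotypes the differences were -0.14 ± 0.22 in old mice (adjusted p = 0.702 in edgeR) and 0.13 ± 0.22 in young mice (adjusted p = 0.699).

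The sign and the call of Cxcr4 in old mice turned on single old knockout libraries. Without replicate 1, Cxcr4 was lower in old knockout than in old wild type, at -0.53 with an adjusted p of 0.0279 in edgeR. Without replicate 2 or 3 instead, the values were 0.06 and 0.02. The age difference within knockout, -0.45 ± 0.22, did not pass (adjusted p = 0.534 in edgeR) and was -0.88 with an adjusted p of 0.0178 without replicate 1. Replicates 2 and 3 are the libraries with male reads. CXCR4 is also a receptor of leukocytes, and the 8 pan-leukocyte markers summed to 17.4 to 28.5 CPM in young wild type, 26.6 to 27.6 CPM in old wild type, 10.4 to 27.4 CPM in young knockout and 9.70 to 24.1 CPM in old knockout, none at 0 in all libraries of a group. Most of this sum in wild type was Arhgdib, with a mean of 21.1 CPM when young and 14.4 CPM when old. Ptprc went the other way, from 0.803 to 3.37 CPM. With age in wild type 5 of the 7 tested markers had positive log2 fold changes, and none passed the threshold in edgeR. The sum therefore does not follow each marker. The part of leukocytes in the Cxcr4 level was not tested.

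The ligand Cxcl12 stood at 39.3, 33.9 and 24.3 CPM in young wild type and at 18.3, 18.0 and 15.2 CPM in old wild type, with no overlap. Its log2 difference of -0.92 ± 0.29 missed the threshold (adjusted p = 0.156 in edgeR). The second receptor of CXCL12, listed as Cxcr7, averaged 102 ± 6.23 CPM in wild type when young and 87.6 ± 7.92 CPM when old and did not pass (-0.22 ± 0.31, adjusted p = 0.816 in edgeR). All 12 genes of the list were tested. For ageing in wild type none passed in edgeR, 3 had an unadjusted p under 0.05, DESeq2 called 1 and limma-voom with sample quality weights 2.

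Knockout in old mice raised 1 of the 12 and lowered none, and in young mice it raised 2 and lowered 2. Gnai3, an inhibitory G protein subunit that couples to chemokine receptors, rose at both ages, from 208, 190 and 212 to 339, 360 and 370 CPM in old mice (0.81 ± 0.15, adjusted p = 0.00597 in edgeR) and by 0.81 ± 0.15 in young mice (adjusted p = 0.00327). Its relative Gnai2 fell in young mice, from 531 ± 50.3 to 300 ± 19.7 CPM (-0.82 ± 0.18, adjusted p = 0.00686 in edgeR). Arrb2, a β-arrestin, fell (-0.93 ± 0.23, adjusted p = 0.0123), and Dpp4, a peptidase that cuts CXCL12, rose from 0.704 ± 0.343 to 2.66 ± 0.885 CPM (1.78 ± 0.57, adjusted p = 0.0413). All 4 lost their calls with GC offsets, at 0.29 for Gnai3 in young and 0.40 in old mice, -0.46 for Gnai2, -0.60 for Arrb2 and 1.31 for Dpp4.

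Within knockout, age made no receptor pass the threshold. In edgeR 0 of 5 were called and 0 had an unadjusted p under 0.05, DESeq2 and limma-voom with sample quality weights each called 0, and 0.0148% of all genes were called. The lowest p was that of Megf10, at -0.33 ± 0.15 (adjusted p = 0.512 in edgeR). Calcr stood at -0.46 ± 0.55, Cd34 at -0.78 ± 0.79 and Met at 0.11 ± 0.18. For the interaction, which asks whether the age difference in knockout departs from that in wild type, 0 of 5 were called by edgeR, DESeq2 or limma-voom, 0 had an unadjusted p under 0.05 in edgeR, and 0.0148% of all genes were called. Calcr had the largest interaction in size, 0.90 ± 0.77 with a 95% interval of -0.82 to 2.62 (adjusted p = 0.745 in edgeR). Megf10, at -0.05 ± 0.22, had an interval of -0.52 to 0.41. Differences within that interval in its knockout response between the ages were not excluded. The 2 knockout comparisons share no library, but each shares a wild-type or knockout group with the age comparisons.

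**Figure D4:**
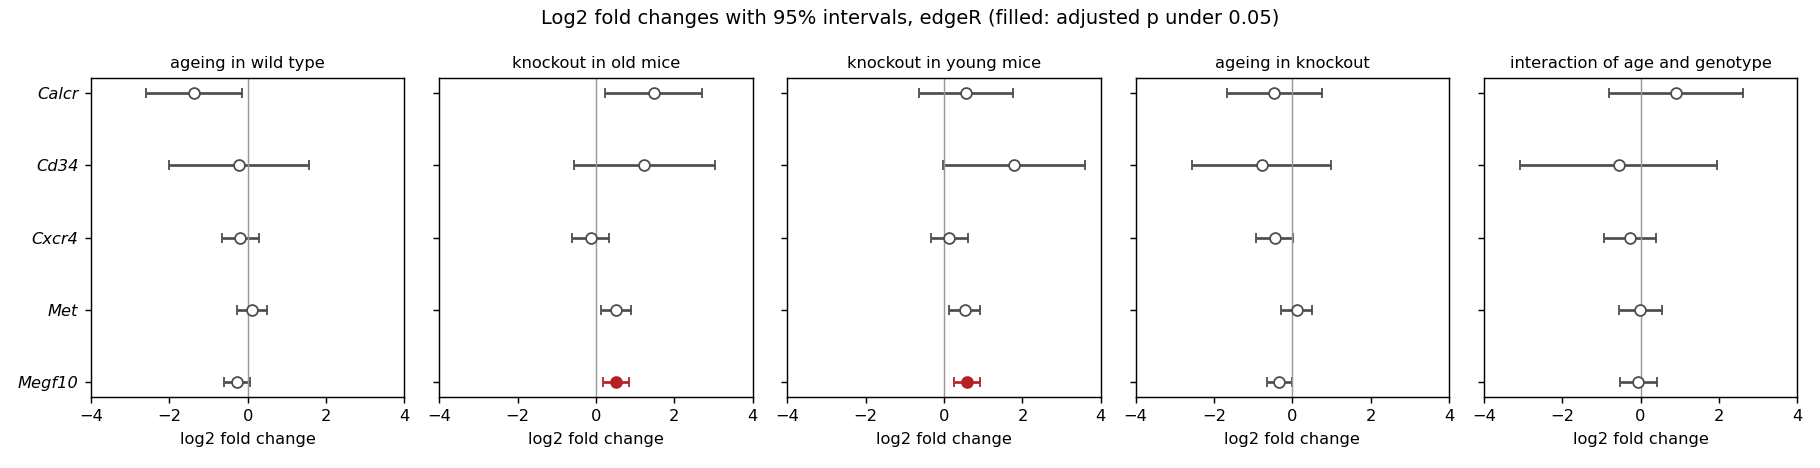
Log2 fold change of each receptor in the 5 comparisons, with 95% intervals from edgeR (old minus young, knockout minus wild type). Filled points have an adjusted p under 0.05. Megf10 is filled in both knockout comparisons, at 0.52 and 0.58, and the intervals of Calcr and Cd34 are the widest.

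Other surface proteins of satellite cells gave a frame for the 5. Of 18 tested, ageing in wild type lowered 1, the growth factor receptor Fgfr4, from 472 ± 19.1 to 276 ± 21.4 CPM (-0.77 ± 0.14, adjusted p = 0.0264 in edgeR). In old mice knockout raised 2, the integrin subunit Itgb1 (786 ± 58.2 to 1279 ± 120 CPM, 0.70 ± 0.14, adjusted p = 0.00671) and Fgfr4 (0.46 ± 0.14, adjusted p = 0.0447), and lowered the laminin-binding integrin subunit Itga7 (-0.44 ± 0.14, adjusted p = 0.0434). Both genes that rose kept their calls with GC offsets, at 0.47 and 0.76, and Itga7 did not, at -0.15. Itgb1 passed in all 12 fits that each left out 1 library, Fgfr4 in 4 and Itga7 in 3. In young mice knockout lowered 4 and raised none. They were M-cadherin, Cdh15 (-0.61 ± 0.14, adjusted p = 0.0103 in edgeR), the tetraspanin Cd82 at -0.50, Itga7 at -0.48 and Notch3 at -0.56, and none of the 4 passed with GC offsets. Without both libraries with most reads outside genes, no gene of this list, of the 5 receptor lists or of the state lists that follow was called in old mice by edgeR. That fit called only 3 of all genes in old mice, against 2265 with all 12 libraries.

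The 17 genes of satellite cell quiescence and the 16 of activation and cycling set the state of the cells in which the receptors were read. Ageing in wild type lowered 3 quiescence genes and raised none. They were the Notch effector Heyl (477 ± 32.7 to 273 ± 23.2 CPM, -0.81 ± 0.12, adjusted p = 0.00940 in edgeR), the cell cycle inhibitor Cdkn1c (1419 ± 94.2 to 751 ± 40.9 CPM, -0.92 ± 0.14, adjusted p = 0.00967) and Pax7. The list's median was -0.58 against 0.01 over all genes, and these 3 calls held with GC offsets. Of the 12 fits that each left out 1 library, the call held in 9 for Heyl (lost without old replicate 2 or 3 or young replicate 1), in 8 for Cdkn1c (lost without any 1 old replicate or young replicate 3) and in 6 for Pax7 (lost without any 1 wild-type library). No activation or cycling gene passed for age in wild type in edgeR, 1 had an unadjusted p under 0.05, DESeq2 called 0 and limma-voom with sample quality weights 1. The proliferation gene Mki67 averaged 292 ± 90.3 CPM when young and 271 ± 34.2 CPM when old.

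Between genotypes the state lists did not move as 1. In old mice 2 quiescence genes rose in knockout, Rbpj at 0.61 ± 0.16 and the coagulation inhibitor Tfpi at 0.63 ± 0.18, and 2 fell, the cell cycle inhibitor Cdkn1a at -1.05 ± 0.20 and Heyl at -0.53 ± 0.12. With GC offsets Cdkn1a alone of these 4 kept its call, Rbpj stood at 0.32, Tfpi at 0.11 and Heyl at -0.29, and the growth arrest gene Gas1 was called higher at 0.82 (adjusted p = 0.0464 in edgeR). Of the activation and cycling genes 4 rose and none fell in old mice, the replication helicase Mcm4 (62.6 ± 11.2 to 110 ± 12.1 CPM, 0.81 ± 0.16, adjusted p = 0.00595 in edgeR) with Bub1, Ccnb1 and Mki67. In young mice 4 fell and none rose, Plk1 (20.8 ± 3.67 to 5.83 ± 2.04 CPM, -1.78 ± 0.29, adjusted p = 0.00168 in edgeR) with E2f1, Fosl1 and Cdk1. With GC offsets Mcm4 alone was called higher in old mice. In young mice Plk1 and E2f1 kept their calls, Fosl1 (-0.74) and Cdk1 (-0.70) lost them, and Myf5 (-0.84, adjusted p = 0.0363 in edgeR) and Pcna (-0.81, adjusted p = 0.0432) were called lower. Of the young quiescence genes 3 fell, Heyl at -1.21 ± 0.13, Pax7 at -0.66 ± 0.14 and Cdkn1a at -0.92 ± 0.20, and 2 rose, Tfpi at 0.73 ± 0.18 among them. Only Heyl kept its call in young mice with GC offsets, at -0.91. The interaction, the test of a difference between the ages, called 0 genes of either list in edgeR, DESeq2 or limma-voom, with 4 genes of each list at an unadjusted p under 0.05 in edgeR.

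These list counts stand against 1.06% of all genes called for ageing in wild type, 16.7% for knockout in old mice and 20.9% in young mice. At an unadjusted p under 0.05 the shares of all genes were 14.2%, 32.9% and 35.7%, and 9.72% for the interaction. Many of the single genes named from the lists depended on 1 library, and the counts that follow are of the 12 edgeR fits that each left out 1. In old mice Podxl passed in 7, Spint2 in 5, Gulp1 in 4, Rbpj, Bub1 and Ccnb1 in 8 each, Tfpi and Mki67 in 6 each and Heyl in 10. In young mice Spint2 and Fosl1 passed in 3 each, Plxnb1 and Cdk1 in 2 each, Notch3 in 5, Itga7 in 7, Cd82 in 8, Dpp4 in 6, and Arrb2 and Tfpi in 11 each. For ageing in wild type Ramp2 and Fgfr4 passed in 6 each, lost without any 1 wild-type library. Col5a3, Gnas and Gnai3 passed in all 12 fits at both ages.

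The genes whose profiles over the 12 libraries ran closest to each receptor were found by the root mean square difference of mean-centred log2 CPM. Calcr lay closest to Chodl, encoding the membrane lectin chondrolectin, at 0.277, then to Klf9 at 0.311 and Gpr37l1 at 0.313, against a median of 0.965 over all genes. Chodl averaged 309 ± 63.2 CPM in wild type when young and 186 ± 3.54 CPM when old, and 472 ± 263 and 399 ± 263 CPM in young and old knockout, the order of groups that Calcr showed. Chodl was also listed among the tendon markers summed above, as the largest part of their sum in wild type. Whether its reads came from tendon cells was not tested. Cd34 lay closest to the phosphodiesterase gene Pde4b at 0.276, the ceruloplasmin gene Cp at 0.290 and the receptor kinase gene Mertk at 0.311. These distances are a description over 12 libraries that share depth and GC trends.

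Megf10 lay closest to the copper transporter gene Atp7a at 0.0719, to Phkb, a phosphorylase kinase subunit, at 0.0841 and to Psd3 at 0.0956, against a median of 0.503. Atp7a averaged 113 ± 15.7 CPM in wild type when young and 99.4 ± 9.67 CPM when old, and 169 ± 12.6 and 141 ± 13.1 CPM in young and old knockout. Met lay closest to Cd47, the surface ligand of SIRPα, at 0.110, to Tmem188 at 0.111 and to the ubiquitin ligase gene Ube3c at 0.112, against a median of 0.493. Cxcr4 had no neighbour as near, with the Wnt receptor gene Fzd8 at 0.159, Akap8l at 0.184 and 2810432L12Rik at 0.188, although its own spread about its mean, 0.318, was the smallest of the 5.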

How the data were processed

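Total RNA of 12 libraries was made with a stranded kit with ribosomal RNA removal, per the labels' protocols. The deposited files hold whole-number read counts per gene symbol, not normalized; TopHat, HTSeq, DESeq2 and build mm9 are named without versions, per the submitters' processing notes. The strand setting of the authors' counting was not stated in labels, notes or files. Summary lines that name no gene were left out; reads outside genes were 32.2% to 70.8% of uniquely aligned reads. In R 4.3.3, edgeR 4.0.16 (filterByExpr, trimmed-mean factors, robust quasi-likelihood test, 1 mean per group, all 12 libraries) tested 13540 genes, with Benjamini-Hochberg adjustment over them and a threshold of 0.05. Alternatives were DESeq2 1.42.0, limma 3.58.1 voom with sample weights, other scaling, no filter, GC offsets, a replicate block, the compared groups alone, and omitted libraries. A log2 fold change is given with its standard error. GENCODE M21 supplied length and GC content for 92.3% of symbols. Named genes were the 5 receptors, the 3 nearest profiles of each, and from each list up to 4 genes past the threshold by smallest adjusted p, or else up to 2 chosen by abundance. The members and lists were chosen with earlier results of these data known. The code was tested on simulated data. It recovered 47% to 56.7% of simulated 2-fold changes between 2 groups and 11.1% of those for the interaction. For 4-fold changes the shares were 83% to 86% and 71%. No library repeated another (Spearman correlations 0.962 to 0.981 within groups).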

Additional observations from a re-analysis of the deposited data

How the results depend on the processing

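Every receptor had at least 105 reads in every library. The 3 libraries of a group spread widely for Calcr and Cd34 in knockout. Young knockout replicate 3, highest in both, also had the fewest reads, 4193433, and the part of depth in this spread was not tested. GC offsets rest on GC content from another build, and leaving out both male libraries leaves 1 old knockout library, assumed to vary like the others.

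Same-numbered libraries did not deviate together (correlations -0.26 to 0.23 over 18 pairs, 3 of 12 libraries closest to their own number), so the numbers are not taken as pairs. The replicate block gave 79 calls for ageing in wild type against 144, 0 for ageing in knockout against 2, and Met at 0.0055 for the interaction; it ended no call of a receptor. The block with GC offsets gave 61, 599, 475 and 0 calls for ageing in wild type, knockout in old mice, knockout in young mice and ageing in knockout. It put Megf10 at 0.45 and 0.49 in old and young mice, past no threshold, Cxcr4 at -0.0722 in young mice and the interaction of Met at 0.0477.

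GC offsets alone gave 1005 calls against 2265 in old and 774 against 2831 in young mice, Megf10 at 0.46 and 0.49 without a call, Cxcr4 at -0.0722 in young mice and the interaction of Met at 0.0367. DESeq2 gave 462 calls for ageing in wild type, 139 for ageing in knockout and 58 for the interaction, and called Met at 0.51 and 0.56. Voom with weights gave 1026, 4270 and 22 calls for ageing in wild type, knockout in old mice and ageing in knockout. It called Calcr at -1.36 for ageing in wild type and, for knockout, Calcr at 1.33, Cd34 at 1.37 and Met at 0.56 in old and Met at 0.58 in young mice, and turned Cd34 to 0.78 for ageing in knockout and 1.21 for the interaction. DESeq2 size factors in edgeR called Met in young mice at 0.56. Library size alone gave 83 calls for ageing in wild type and 4 for the interaction, and Megf10 at 0.27 and 0.49 without a call. It moved the median log2 difference of all genes to -0.26 in old and -0.10 in young mice, with 359 genes higher and 1827 lower in old mice against 1289 and 976, and 865 higher and 1278 lower in young mice against 1477 and 1354. Without the filter 38 and 6 genes were called for ageing in knockout and the interaction, and Met in young mice at 0.55. The groups compared alone gave 913, 1536 and 0 calls for ageing in wild type, knockout in young mice and ageing in knockout. They called Calcr at -1.36 for ageing in wild type, Cd34 at 1.22 and Met at 0.51 in old mice, and left Megf10 at 0.63 without a call in young mice; the interaction uses all groups, so it has no such fit.

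Without both libraries with most reads outside genes, calls numbered 2, 3, 1 and 0 for ageing in wild type, knockout in old mice, ageing in knockout and the interaction, with Megf10 at 0.60 without a call and Cxcr4 at 0.0489 in old mice. Without both male libraries they numbered 121, 15 and 0 for knockout in old mice, ageing in knockout and the interaction. Megf10 in old mice was then at 0.72 without a call and Cxcr4 at 0.45, Calcr, Cxcr4 and Met were at 0.22, 0.0789 and -0.14 for ageing in knockout, and Cxcr4 and Megf10 at 0.28 and 0.10 for the interaction.

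Leaving out each library in turn gave 6 to 458 calls for ageing in wild type, 779 to 3144 and 1479 to 3140 for knockout in old and young mice, 0 to 102 for ageing in knockout and 0 to 116 for the interaction. For ageing in wild type Met ranged from -0.0417 to 0.25. For knockout in old mice Calcr ranged from 0.89 to 1.91, Cd34 from 1.07 to 1.52, Cxcr4 from -0.53 to 0.0613, Met from 0.47 to 0.63 and Megf10 from 0.44 to 0.59, and Megf10 kept its call in 6 of 12 fits. For knockout in young mice Calcr ranged from -0.0186 to 0.94, Cd34 from -0.0410 to 2.29, Met from 0.37 to 0.72 and Megf10 from 0.46 to 0.73, with its call kept in 9 of 12. For ageing in knockout Calcr ranged from -1.08 to 0.15, Cd34 from -1.29 to 1.07, Cxcr4 from -0.88 to -0.26 and Met from -0.0668 to 0.23, and for the interaction Cd34 from -1.06 to 1.29, Met from -0.18 to 0.15 and Megf10 from -0.21 to 0.0628. The other 501 receptor values kept their direction and side of the threshold, the other 54 counts of called genes lay within 1.5 times the reported count, and the cause of each shift was not tested.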
